A study of Arabidopsis thaliana with 10 samples.

Results

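DIC1 (AT2G22500, also named UCP5), DIC2 (AT4G24570) and DIC3 (AT5G09470) encode the mitochondrial dicarboxylate carriers of Arabidopsis thaliana. They are 3 of the 33297 rows of the deposited expression table, found by their locus codes. The set was chosen by measured values: DIC2 had been seen to be high in the single mutants of these data, and its family was taken with it. The levels of DIC1 to DIC3 and their differences between genotypes are therefore given as a description, with no test.

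The libraries were mRNA from whole seedlings, 7 days old, grown on MS agar in long days (16 hours lit, 8 dark, 23 °C) and collected at hour 12 of the light period. The genotypes were Columbia-0 wild type (Col), hda9 (SALK_007123), hos15 (hos15-2, SALK_064435), pwr (SALK_071811C) and the hda9 hos15 double mutant with those same 2 alleles; each mutant genotype thus rests on 1 insertion allele per gene. HDA9 is a histone deacetylase, HOS15 a WD40-repeat protein and PWR a SANT-domain protein, and the series' design text describes them as binding one another. The labels list 2 libraries for each genotype, but the table holds 1 FPKM value (fragments per kilobase of transcript and 1000000 mapped fragments) for a gene in each genotype, as the authors combined them. There is no replicate spread, the sequencing depth is unknown, and no difference below has a replicate check.

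The mutated genes were read first, as a check of the labels. HDA9 stood at 1.70 and 1.76 FPKM in hda9 and the double mutant and at 7.79 to 10.9 elsewhere, and PWR at 2.18 in pwr and 8.38 to 12.1 elsewhere. HOS15 stood at 2.16 and 1.89 FPKM in hos15 and the double mutant and at 16.2 in Col, but also at only 4.37 in hda9 and 3.17 in pwr. The labels give no hos15 allele to these 2 genotypes, and the part of low HOS15 transcript in the carrier levels was not tested.

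Carriers of this family sit in the inner mitochondrial membrane and exchange malate, oxaloacetate, succinate and similar dicarboxylates, and also phosphate and sulphate, for one another. In plants this traffic links the tricarboxylic acid cycle in the mitochondrial matrix with malate pools in the cytosol and other organelles, and so with the movement of reducing power and of carbon skeletons. DIC1 and DIC2 are known as the forms expressed in most organs, and DIC2 as a carrier of malate into leaf mitochondria.

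The genes differ in place and structure. In the RefSeq annotation of TAIR10.1, DIC1 lies at chr2:9562774-9564850 on the minus strand, DIC2 at chr4:12686459-12687650 on the plus strand and DIC3 at chr5:2949132-2950695 on the minus strand. DIC1 and DIC2 have 1 exon each and a coding length of 942 nt, while DIC3 has 2 exons and a coding length of 1014 nt. None of the 3 overlaps another annotated gene. The coding sequences are 70.7% identical between DIC1 and DIC2, 68.8% between DIC1 and DIC3 and 68.4% between DIC2 and DIC3 over aligned bases. The longest stretch that any pair of transcripts shares without a mismatch is 29 bases, between DIC1 and DIC3, and the longest that DIC1 and DIC2 share is 28 bases. That stretch is shown here in capitals with its flanks, because reads from sequence that both genes hold could be assigned to either. Capitals in the DIC3 line mark the 17 bases that match it in a gapped alignment of DIC1 and DIC3. Gaps are not drawn, so the last capital and the bases after it do not stand under their partners.
DIC1: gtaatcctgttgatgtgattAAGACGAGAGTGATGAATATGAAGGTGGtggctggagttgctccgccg
DIC2: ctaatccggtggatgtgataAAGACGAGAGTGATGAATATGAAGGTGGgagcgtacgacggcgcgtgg
DIC3: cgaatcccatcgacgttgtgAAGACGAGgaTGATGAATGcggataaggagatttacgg

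The 250 bases before the annotated start of DIC1 and DIC2 follow, from TAIR10.1, since these are the 2 members that were high together. The DIC1 window is chr2:9564851-9565100 (minus strand) and the DIC2 window chr4:12686209-12686458 (plus strand), and the first 12 bases of the latter belong to a tRNA gene. Capitals mark matches to the motifs searched.
DIC1: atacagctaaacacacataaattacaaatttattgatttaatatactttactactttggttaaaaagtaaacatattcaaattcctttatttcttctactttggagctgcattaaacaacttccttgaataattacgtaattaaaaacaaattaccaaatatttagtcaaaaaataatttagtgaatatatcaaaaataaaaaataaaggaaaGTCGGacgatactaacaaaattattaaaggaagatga
DIC2: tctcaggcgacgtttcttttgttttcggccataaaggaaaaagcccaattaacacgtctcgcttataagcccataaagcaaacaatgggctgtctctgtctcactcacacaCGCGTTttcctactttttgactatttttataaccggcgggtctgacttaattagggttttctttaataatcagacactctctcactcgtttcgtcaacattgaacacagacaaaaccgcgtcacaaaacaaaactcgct
Matches to 6 motifs known from stress-regulated plant promoters were searched on both strands. CGCGTT, the rapid stress response element, stood once in the DIC2 window, at -139 to -134 from the start, and in neither of the others, against 2.59% of the windows of 27443 protein-coding genes. CCGAC, the core of the cold-related C-repeat, stood once in the DIC1 window on the opposite strand, at -37 to -33, once in that of DIC3 and not in that of DIC2, against 12.0% of windows. TTGACC, the only form of the W-box searched, stood in the DIC3 window only, against 12.2%. Other forms of the W-box were not searched, so DIC1 and DIC2 cannot be said to lack one. CACGTG (the G-box), with GCCGCC (the GCC box), and the mitochondrial dysfunction motif stood in none of the 3, against 6.49%, 1.87% and 1.75% of windows. The windows also differ in composition, with a GC content of 22.4% for DIC1 and of 41.6% for DIC2. A match describes these letters and shows no binding.

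The first question was how much of each carrier transcript each genotype held. DIC2 stood at 14.7 FPKM in Col, with 21.1 in the double mutant, against 83.5 in hda9, 70.7 in hos15 and 63.9 in pwr. The single mutants thus lie together far above Col, and the double mutant lies near Col. DIC1 stood at 12.0 FPKM in Col, with 18.7 in the double mutant, against 41.1 in hda9, 35.0 in hos15 and 29.2 in pwr. The order of the genotypes is the same for both genes: hda9, hos15, pwr, double mutant, Col. DIC3 stood at 0.0365 FPKM in Col, with 0.166 in the double mutant, against 0.0840 in hda9, 0.0444 in hos15 and 0.0390 in pwr, so hardly any DIC3 transcript was recorded in these seedlings. In bulk tissue, more RNA per cell and more cells of a kind that expresses a gene cannot be told apart.

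**Figure D1:**
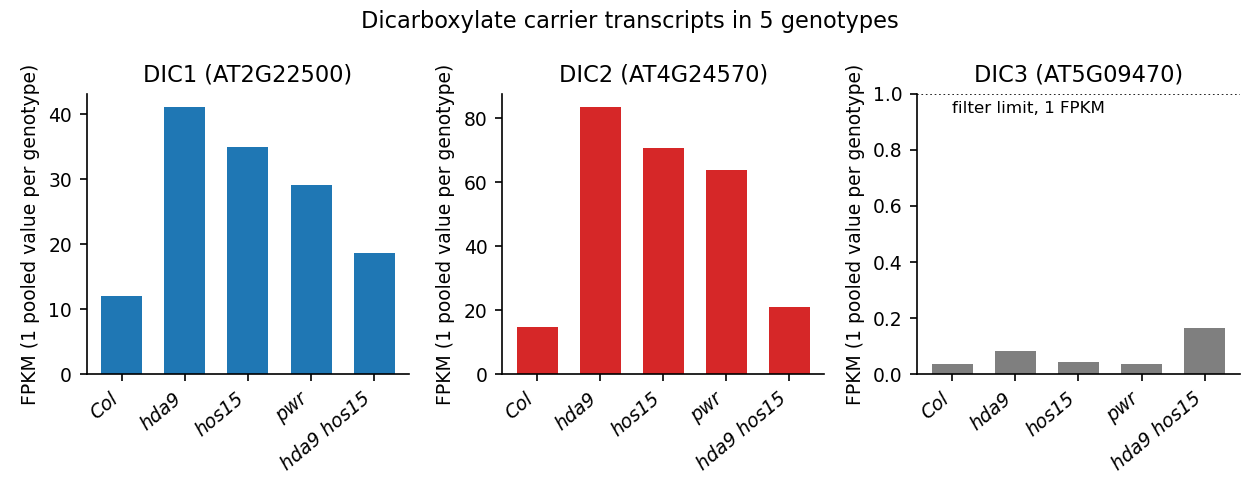
FPKM of DIC1, DIC2 and DIC3 (one panel each, with its own linear axis from 0) in the 5 genotypes; each bar is the authors' single pooled value, so there are no error bars. DIC1 and DIC2 are lowest in Col and highest in hda9, with the double mutant below the 3 single mutants, and DIC3 lies far under the 1 FPKM needed for comparison.

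As deposited, DIC1 and DIC2 were of similar abundance in Col and lay farther apart in the single mutants. On the FPKM scale, which is per length, DIC2 was 1.22 times DIC1 in Col and 1.13 times in the double mutant, against 2.03 times in hda9, 2.02 times in hos15 and 2.19 times in pwr. DIC2 was thus above DIC1 in all 5 columns. The log2 change from Col was greater for DIC2 than for DIC1 by 0.73, 0.72 and 0.83 in hda9, hos15 and pwr. With adjustment for transcript sequence, described further on, that gap shrank to 0.23, 0.36 and 0.17, so its size and the order of the genotypes in it depend on the adjustment. In the double mutant the gap was -0.11 as deposited and -0.60 adjusted. Among the 18912 rows kept for comparison (those reaching 1 FPKM in 2 or more of the 5 columns), 56.8% lay below DIC2 in Col and 89.8% in hda9. For DIC1 those shares were 50.4% in Col and 80.8% in hda9. DIC1 and DIC2 passed this filter, and DIC3 did not.

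Differences between genotypes were taken as log2(FPKM + 1), and a gene is called higher or lower at 2-fold or more on that scale. In hda9 against Col, DIC2 was higher by 2.42 and DIC1 by 1.69 on the log2 scale, so 2 of the 2 kept members were called. These contrasts are the ones the choice of genes rests on, so nothing is read from that count. Of all kept rows, 1.99% were called higher in hda9, and 26 rows lay as high as DIC2 or higher, with DIC2 counted among them. In hos15 against Col, DIC2 was higher by 2.19 and DIC1 by 1.47, with both called, against 1.23% of rows. There 23 rows, DIC2 included, lay as high as DIC2 or higher, and 82 as high as DIC1 or higher, DIC1 included. In pwr against Col, DIC2 was higher by 2.04 and DIC1 by 1.21, with both called, against 1.94% of rows. The DIC1 difference in pwr became 0.76, under the 2-fold limit, when each column was scaled to the same sum. In each of the 3 single mutants DIC2 differed from Col by more than DIC1 did.

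The 4 mutants share 1 Col column, so a low Col value of a gene puts it high in each of them. The median of all kept rows against Col was -0.04, -0.01 and -0.09 in hda9, hos15 and pwr, with -0.07 in the double mutant, on the log2 scale. In all 3 single mutants together, 0.555% of kept rows (105) were at least 2-fold higher, DIC1 and DIC2 among them.

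Transcript composition moves with genotype in these columns. Against Col, the fifth of kept genes with the most purine-rich transcripts had a median log2 difference of -0.40, -0.29 and -0.57 in hda9, hos15 and pwr and -0.39 with both genes lost, and the fifth poorest in purine 0.22, 0.17, 0.27 and 0.22. The part of this trend in the carrier values was not tested other than by the adjustment below. DIC1 is 49.4% purine and DIC2 50.1%, against a median of 50.6% over 18079 kept protein-coding genes, with 33.2% and 42.9% of those genes below them. The DIC1 transcript has 2077 nt, a GC content of 40.1% and a highest purine content in 100 nt of 66%. For DIC2 these are 1192 nt, 47.4% and 71%. Which of these features moved the adjusted values was not tested. With purine content (mean and highest in 100 nt), length and GC content regressed out, the DIC2 differences from Col were 1.98 in hda9, 1.84 in hos15 and 1.49 in pwr, and those of DIC1 1.75, 1.48 and 1.32. All 6 thus lay past the 2-fold limit with and without this adjustment.

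The double mutant bears on whether the hda9 and hos15 alleles together go beyond either alone. HOS15 transcript was already low in hda9 (4.37 FPKM, against 16.2 in Col). The hda9 column therefore does not stand for HDA9 loss with HOS15 as in Col. Both DIC1 and DIC2 lay nearer to Col in the double mutant than in any single mutant. The single mutant values used here are those that singled out DIC2, so these differences too are a description. The double mutant differed from Col by 0.60 for DIC1 and 0.49 for DIC2 on the log2 scale, and neither was called, where 1.49% of kept rows were. The DIC2 value became 0.09 with adjustment for transcript sequence. Against hda9, the double mutant was lower by 2-fold or more for both genes, with log2 differences of -1.94 for DIC2 and -1.10 for DIC1, against 1.49% of rows called lower. The DIC1 difference from hda9 was -0.96, short of the limit, with a pseudocount of 5. Against hos15 it was lower for DIC2, at -1.70, and not called for DIC1, at -0.87, against 0.994% of rows called lower. Against pwr it was lower for DIC2, at -1.56, and not called for DIC1, at -0.62, against 0.598% of rows.

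The sum of the hda9 and hos15 differences from Col was 4.61 for DIC2 and 3.16 for DIC1 on the log2 scale. The double mutant minus that sum was -4.13 for DIC2 and -2.56 for DIC1. Of the 18912 kept rows, 13 lay as far below their sum as DIC2 or farther, DIC2 included. For DIC1 the number was 96, DIC1 included. The Col column enters each term of this sum, and HOS15 transcript was low in hda9 as well as in hos15. The high single mutant values for which DIC2 was chosen are subtracted here, so nothing is read from its rank. Of the 105 rows that were at least 2-fold higher in all 3 single mutants, 61 were under 2-fold in the double mutant, as DIC1 and DIC2 were, and 44 were at least 2-fold higher there too. In 18 of the 105 the double mutant was at least 2-fold lower than each of hda9, hos15 and pwr, and DIC2, though not DIC1, met that condition. The median of the 105 rows was 1.66, 1.35 and 1.35 in hda9, hos15 and pwr, with 0.90 in the double mutant, on the log2 scale. Rows picked for high values in some columns tend to lie lower in another through the picking alone.

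**Figure D2:**
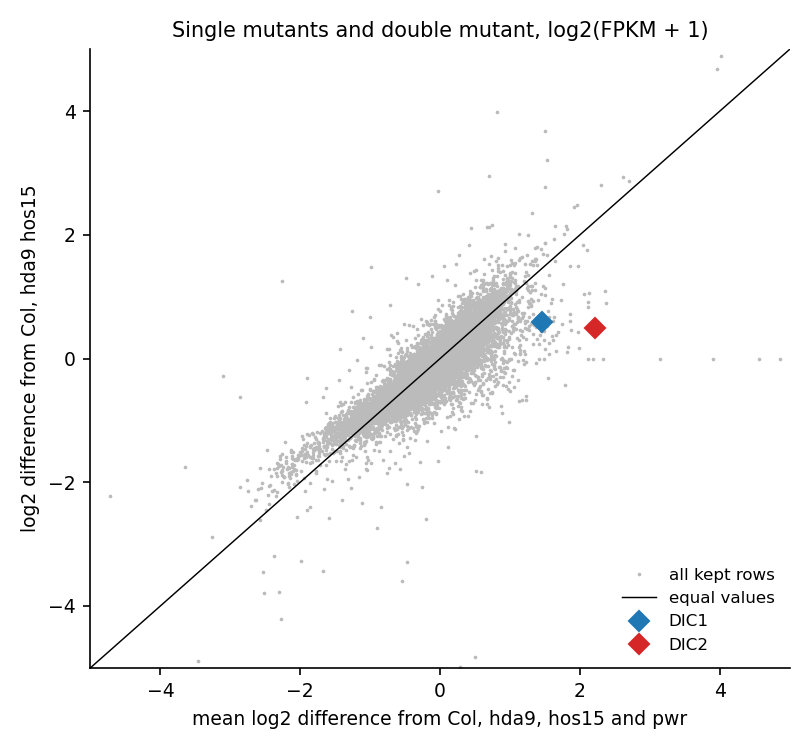
Each grey point is one of the 18912 kept rows, with its mean log2 difference from Col over hda9, hos15 and pwr on the horizontal axis and its log2 difference from Col in the double mutant on the vertical axis, both of FPKM + 1 (11 rows lie beyond the plotted range). DIC1 (1.46 and 0.60) and DIC2 (2.22 and 0.49) lie to the right of and below the line of equal values.

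The single mutants lay within 2-fold of one another in these genes. Between hda9 and hos15 the log2 difference was 0.24 for DIC2 and 0.23 for DIC1, where 0.740% of rows differed at least 2-fold either way. Between hda9 and pwr it was 0.38 for DIC2 and 0.48 for DIC1, against 0.925% of rows. Between hos15 and pwr it was 0.14 for DIC2 and 0.26 for DIC1, against 1.20% of rows. No member was called in these 3 comparisons. The share of kept rows with as high a difference or higher ran from 5.20% (DIC1, hda9 against pwr) to 40.4% (DIC2, hos15 against pwr). Without replicate values it cannot be said which neighbours in the order of genotypes differ beyond their spread.

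The next question was whether other carriers moved in the same way. The mitochondrial carrier family is a set of inner-membrane and organelle transporters for nucleotides, phosphate, amino acids, cofactors and organic acids. A list written from knowledge of the family, joined with genes found by annotation, gave 55 other members, all with a row, of which 53 were kept. None of the 53 was 2-fold higher or lower than Col in any mutant, where 3.91% of all kept rows were called lower in the double mutant, 4.49% in hda9, 2.48% in hos15 and 7.55% in pwr. The shares called higher were 1.49% in the double mutant, 1.99% in hda9, 1.23% in hos15 and 1.94% in pwr, so a count of 0 among 53 is close to the share of all rows in that direction. Their log2 differences from Col ran from -0.54 to 0.76 in hda9, between -0.46 and 0.66 in hos15, between -0.50 and 0.99 in pwr, and between -0.61 and 0.95 where both HDA9 and HOS15 were mutated. Their medians were 0.05, 0.03, -0.01 and 0.00 in that order. In each single mutant DIC1 and DIC2 thus lay above the highest of the 53, and in the double mutant they did not. DIC2 was chosen for high values in these single mutants and the 53 were not, so nothing is read from its place above them.

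The carriers closest in substrate to DIC1 to DIC3 were looked at singly. The 5 listed uncoupling proteins and other organic acid carriers were all kept, and none was called in any mutant, which for 5 genes is near the shares of all rows given above. DTC, which carries dicarboxylates and tricarboxylates, stood at 191 FPKM in Col, with 199.7 in the double mutant, against 207 in hda9, 199.8 in hos15 and 189 in pwr. PUMP1, the uncoupling protein most abundant here, stood between 57.2 and 63.3 FPKM in the mutants, against 48.6 in Col. The median log2 difference of these 5 from Col was 0.15, 0.07 and -0.02 in hda9, hos15 and pwr, with 0.13 in the double mutant. Of the 30 other listed carriers, 29 were kept, and AAC1, the most abundant ADP/ATP carrier, stood at 758 FPKM in Col, with 1160 in the double mutant, against 1102 in hda9, 1005 in hos15 and 1218 in pwr. PHT3;1, a mitochondrial phosphate carrier, stood at 152 FPKM in Col, with 296 in the double mutant, against 259 in hda9, 242 in hos15 and 303 in pwr. PHT3;1 was the highest of the 53 in every mutant, just short of the 2-fold limit in pwr at 0.99, and past it in pwr and in the double mutant with median-ratio scaling. BOU, one of the most abundant carriers in the list taken from annotation (37 members, 35 kept), stood between 67.7 and 82.9 FPKM.

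DIC1 and DIC2 moved up within the family accordingly. Summed over DIC1, DIC2 and the 53 others, they made up 1.41% of carrier FPKM in Col, with 1.59% in the double mutant, against 4.95% in hda9, 4.48% in hos15 and 3.54% in pwr. In Col 21 of the 53 others lay above DIC2, and in the single mutants 4 or 5 did. In the double mutant 13 did. These shares and ranks rest on the single mutant values for which DIC2 was chosen, so they too are a description.

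**Figure D3:**
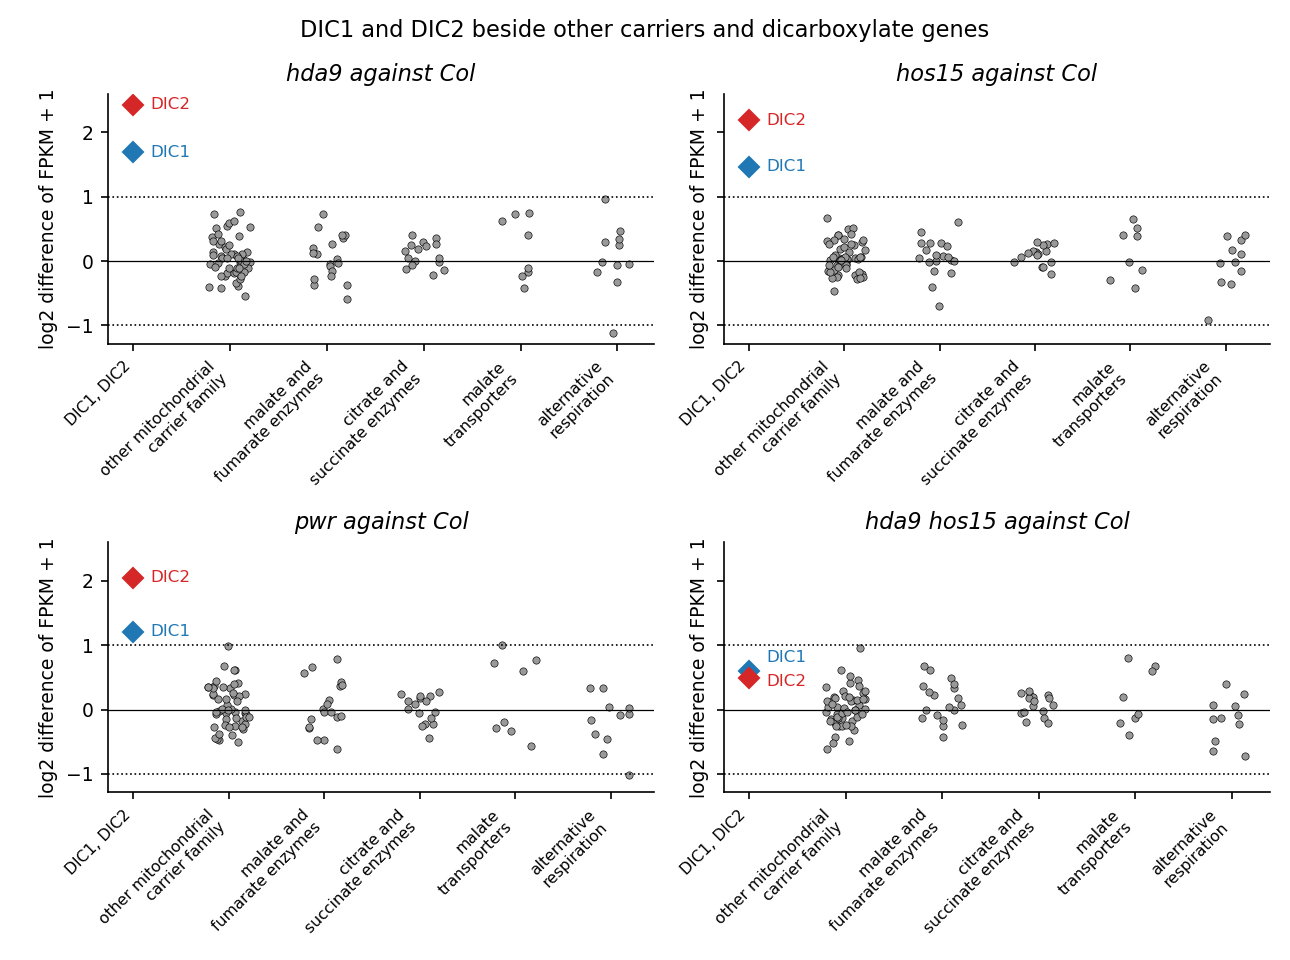
Log2 difference of FPKM + 1 from Col in each of the 4 mutants (one panel each) for DIC1 and DIC2 (diamonds) and for the kept members of each list (grey points, spread sideways for legibility); dotted lines mark 2-fold. In the hda9, hos15 and pwr panels DIC1 and DIC2 lie above every grey point, and in the double mutant panel they lie within the range of the other carriers. DIC2 was chosen for its high values in the single mutants.

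Enzymes that make or use the carried acids were then compared. Of 21 listed malate dehydrogenases, malic enzymes, fumarases and phosphoenolpyruvate carboxylases, 19 were kept and none was called in any mutant, against 1.23% to 1.99% of all rows called higher and 2.48% to 7.55% called lower, depending on the mutant. At those shares 0 of 19 is near the background, as is 0 called in the next list. Their median log2 differences from Col were 0.03, 0.06 and -0.03 in hda9, hos15 and pwr, with 0.07 in the double mutant. The cytosolic malate dehydrogenase c-NAD-MDH1 stood between 828 and 939 FPKM in the mutants, against 546 in Col, and the peroxisomal PMDH2 between 697 and 770 in the mutants, against 758 in Col. Of 20 listed citrate and succinate enzymes of the tricarboxylic acid cycle, 16 were kept and none was called, with medians of 0.10, 0.11 and 0.05 in hda9, hos15 and pwr, with 0.10 in the double mutant. The aconitase ACO1 stood between 179 and 222 FPKM and the citrate synthase CSY4 between 80.5 and 103. One gene of that list, SDH2-1, has no row of its own in the table.

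Malate transporters of other membranes were the next list. Of 9 listed, 8 were kept and none was called, which for 8 genes is again near the background, with medians of 0.15, 0.19 and 0.21 in hda9, hos15 and pwr, with 0.07 in the double mutant. DIT1, the plastid 2-oxoglutarate/malate translocator, stood at 286 FPKM in Col, with 499 in the double mutant, against 480.3 in hda9, 448 in hos15 and 572 in pwr. Its log2 difference in pwr was 0.997, and it was past 2-fold there with median-ratio scaling. DIT2.1, a plastid glutamate/malate translocator, stood between 146 and 174 FPKM in the mutants, against 102 in Col.

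Genes of alternative respiration and mitochondrial stress, several of which rise when the respiratory chain is impaired, were the last list. Of 16 listed, 11 were kept, none was called higher, and 1 was called lower in hda9 and in pwr, against 4.49% and 7.55% of all rows. A count of 1 of 11 is near that background. That gene was UPOX, a mitochondrial marker of oxidative stress. UPOX stood at 7.96 FPKM in Col, with 4.71 in the double mutant, against 3.15 in hda9, 3.77 in hos15 and 3.44 in pwr. It went the other way from DIC1 and DIC2, being highest in Col. AOX1D, which encodes an alternative oxidase and was chosen after its values were seen, was just short of the limit in hda9, in the direction of DIC1 and DIC2, with a log2 difference of 0.96. It was at 0.737 FPKM in Col, with 0.480 in the double mutant, against 2.39 in hda9, 1.17 in hos15 and 0.783 in pwr. The UPOX call was lost in hda9 with adjustment for transcript sequence, and in pwr with that adjustment, with median-ratio scaling and with quantile normalization. The list medians were -0.01, -0.01 and -0.08 in hda9, hos15 and pwr, with -0.13 in the double mutant.

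The neighbouring genes on the chromosome were compared with the carriers. Beside DIC2 lies UBP16, a ubiquitin-specific protease gene, 1482 bases away. UBP16 stood between 9.10 and 9.72 FPKM in the mutants, against 8.71 in Col. Beside DIC1 lie CYCD2;1, a D-type cyclin gene, 6606 bases away, which stood between 6.59 and 9.33 FPKM in the mutants, against 10.6 in Col, and AT2G22510, a glycoprotein gene 4172 bases away, which stood between 68.4 and 102 in the mutants, against 67.7 in Col. None of these 3 neighbours was 2-fold apart from Col in any mutant, which for 3 genes is near the shares of all rows given above. AT5G09480, 166 bases from DIC3, stood between 35.5 and 44.4 FPKM, so the near absence of DIC3 was not shared by its neighbour.

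Genes whose pattern over the 5 columns was nearest to that of DIC2 were found by the root mean square distance between log2(FPKM + 1) profiles, each centred on its own mean, among 17162 protein-coding genes. The nearest 8 were ERF6, BCB, AT2G32200, CAF1a, AT2G32210, AT3G04640, AT1G71520 and AT3G10930, at distances of 0.17 to 0.27 and with Pearson's r of 0.97 to 0.99 over the 5 columns. ERF6, an ethylene response factor and the nearest, stood at 18.7 FPKM in Col, with 21.3 in the double mutant, against 105 in hda9, 71.6 in hos15 and 61.8 in pwr. BCB, which encodes a blue copper-binding protein, stood at 36.2 and 50.5 FPKM in Col and the double mutant and at 182, 116 and 115 in hda9, hos15 and pwr. CAF1a, which encodes an mRNA deadenylase, stood at 9.09 and 9.95 FPKM in Col and the double mutant and at 36.1, 30.1 and 26.6 in hda9, hos15 and pwr. Each of these has hda9 highest and the double mutant closest to Col, as DIC2 does. DIC1 ranked 28 in nearness to DIC2, at a distance of 0.40 and an r of 0.98.

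Nearest to DIC1 were AT4G34150, NHL3, AT2G32190, TET8 and PAP1, at distances of 0.04 to 0.08 and with r of 0.99 to 1.00. AT4G34150, which encodes a calcium-dependent lipid-binding protein, was at 48.3 FPKM in Col, with 69.1 in the double mutant, against 147 in hda9, 130 in hos15 and 105 in pwr. TET8, a tetraspanin gene, stood at 62.6 and 85.3 FPKM in Col and the double mutant and at 214, 177 and 136 in hda9, hos15 and pwr. In all 5 the order of the genotypes is that of DIC1. AT2G32190, AT2G32200 and AT2G32210 lie close together and have the same annotated product. Whether reads are split between them was not tested, as their sequences were not compared. With 5 columns an r near 1 is common, and it is given only as a description.

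**Figure D4:**
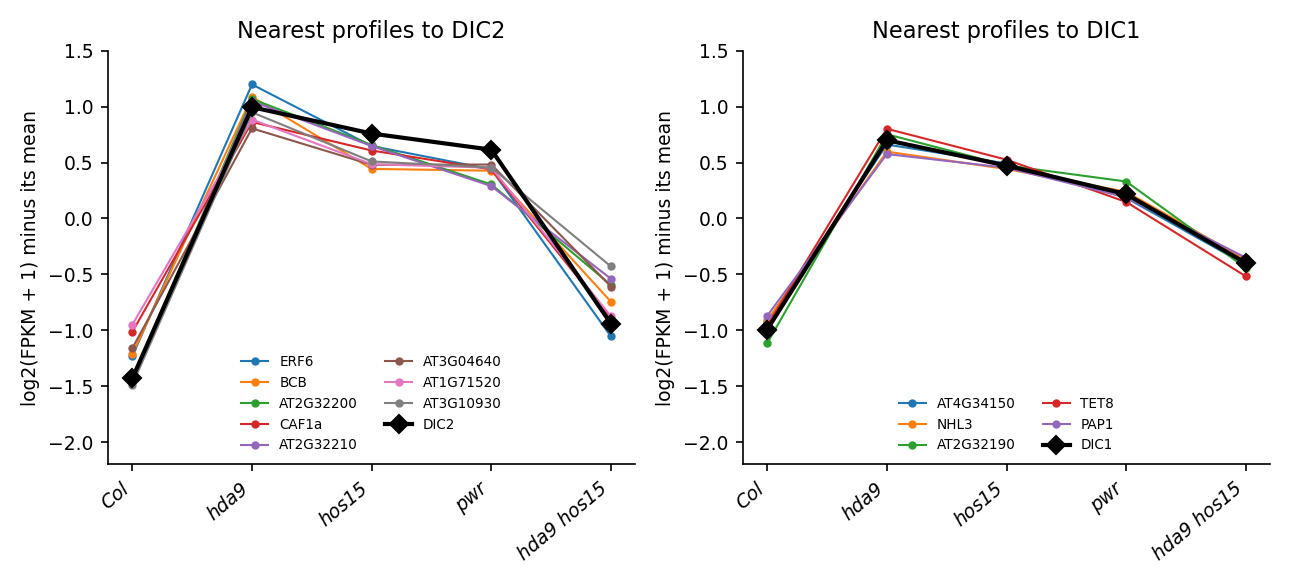
Log2(FPKM + 1) minus its mean over the 5 genotypes, for DIC2 with its 8 nearest genes (left) and DIC1 with its 5 nearest (right); each point is one pooled value. The DIC2 profile falls more steeply from pwr to the double mutant than that of DIC1, and its neighbours scatter more widely around it.

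The motifs shown above were counted in the upstream windows of these genes too, a step chosen after the values were seen. CGCGTT stood in 1 of the 8 windows nearest to DIC2, that of AT2G32210, and in 1 of the 5 nearest to DIC1, that of AT4G34150. Among the rows at least 2-fold higher in all 3 single mutants, 96 had a window and 8 of these, DIC2 included, held CGCGTT (8.33%, against 2.70% of the windows of kept genes). For the other motifs in those 96 windows the shares were 13.5% for TTGACC, 6.25% for CACGTG, 13.5% for CCGAC, 5.21% for GCCGCC and 3.13% for the mitochondrial dysfunction motif, against 12.3%, 7.19%, 12.9%, 1.94% and 1.24%.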

How the data were processed

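Per the labels' protocols, mRNA libraries that keep strand were made from whole seedlings. The submitters' processing notes name TAIR10, TopHat2, Cufflinks and Cuffdiff. Versions, settings and the way in which libraries were combined: not given in the sources used here. The authors deposited FPKM, with 1 pooled value for a gene in each genotype. The column headed as wild type was read as Col. FPKM sums differed, from 955700 (Col) to 1326086 (pwr). All 271 organelle rows are listed at 0. The depth is unknown, and so are counting error and the lowest level that could be detected.

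Computed here (Python 3.11.15, pandas 2.3.3, scikit-learn 1.9.0, Biopython 1.88) were differences of log2(FPKM + 1) on the rows that reach 1 FPKM in 2 columns or more, called at 2-fold. No p-value was computed. Sequence-adjusted values are residuals of additive cubic splines (5 knots) of transcript purine content, highest purine content in 100 nt, length and GC, fitted over kept coding genes with transcripts of 300 nt or longer. Procedures were tested on simulated data. Gene models and sequences are RefSeq's for TAIR10.1, matched by locus code; the table holds no coordinates. Named from each list were members past 2-fold in a mutant, else the 2 most abundant; others were named as neighbours (1 is not reported here), as extremes, or as nearest in pattern (8 for DIC2, 5 for DIC1; highest FPKM of at least 2). The genes and lists were chosen with earlier results of these data known.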

Additional observations from a re-analysis of the deposited data

Results flagged for a closer look

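For 16 of the 27 named genes examined, losing HOS15 moved the transcript one way in Col and the other way in hda9, and losing HDA9 did so in Col and in hos15, with at least 2-fold between the 2 effects. The same condition was met by 954 of the 18912 kept rows (5.04%), and with the double mutant below the sum by 574 (3.04%). The difference was not tested, since each genotype is 1 pooled value. HOS15 transcript was itself low in hda9 (4.37 FPKM, against 16.2 in Col), and its part in these values was not tested. The value is the double mutant minus the sum of the single mutants, on the log2 scale. It was -4.13 for DIC2, where losing HOS15 gave 2.19 in Col and -1.94 in hda9, and -2.56 for DIC1, where it gave 1.47 and -1.10. Among the genes nearest to DIC2 in pattern it was -4.13 for ERF6, -3.49 for BCB, -3.76 for AT2G32200, -3.38 for CAF1a, -3.68 for AT2G32210, -3.05 for AT3G04640, -3.19 for AT1G71520 and -3.37 for AT3G10930. Among those nearest to DIC1 it was -2.49 for AT4G34150, -2.32 for NHL3, -2.79 for AT2G32190, -2.80 for TET8 and -2.25 for PAP1. These 13 were picked for profiles like those of DIC2 and DIC1, so their sign adds nothing to theirs. The value was 1.37 for UPOX, which is lowest in hda9.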

How the results depend on the processing

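No paired analysis was possible because the table gives 1 value per genotype; for the same reason no library could be left out. For DIC2, 75 of 76 alternative results kept their direction and their side of the limit, and for DIC1 71 of 76. These include the 3-fold limit, which leaves the value as it was. There a direction could not change, and only a difference called at 2-fold could change side. At a 3-fold limit (1.58) the calls ended for DIC1 in hos15 (1.47) and pwr (1.21) against Col and in the double mutant against hda9 (-1.10), and for DIC2 in the double mutant against pwr (-1.56). DIC1 in pwr also lost its call with columns scaled to a sum of 1000000 (0.76), and DIC1 in the double mutant against hda9 with a pseudocount of 5 (-0.96). Over all settings run, DIC2 against Col ranged from 1.98 to 2.49 (hda9), 1.84 to 2.26 (hos15), 1.49 to 2.14 (pwr) and 0.09 to 0.58 (both lost). The gap between DIC2 and DIC1 in their change from Col fell with sequence adjustment from 0.73, 0.72 and 0.83 to 0.23, 0.36 and 0.17 in hda9, hos15 and pwr. Scaling to a common sum moved the median of all kept rows by -0.23, -0.23 and -0.40 in hda9, hos15 and pwr, with -0.26 in the double mutant, and quantile normalization moved it by 0.14 in pwr. Median-ratio scaling put 1 listed carrier past 2-fold in pwr and, likewise, 1 where both were lost, and 1 malate transporter in pwr. UPOX took the stress list from 1 to 0 called in hda9 with sequence adjustment and in pwr with that, median-ratio scaling and quantile normalization. List medians stayed between -0.13 and 0.31 as deposited and with median-ratio scaling, quantile normalization and sequence adjustment. Counts over all rows depend far more on the setting. In pwr, 366 rows higher and 1427 lower became 78 and 3128 with a common sum, 194 and 518 with a pseudocount of 5, and 289 and 394 with sequence adjustment. In hda9, 377 and 849 became 206 and 1427, 193 and 266, and 310 and 236 in the same order. The sequence-adjusted counts cover only the 18079 kept protein-coding genes that were fitted, not all 18912 kept rows, so part of their drop can come from that. Of the 8 genes nearest to DIC2, 6 stayed among the nearest 20 with a pseudocount of 5 and 8 with median-ratio scaling; all 5 nearest to DIC1 stayed in both.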
